A study of Oryctolagus cuniculus with 6 samples.

Results

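The matrix metalloproteinases (MMPs) and their tissue inhibitors (TIMPs) were examined as a group of 10 genes in RNA-seq data from rabbit limbal stem cells (LSCs). They were 7 enzymes, namely MMP1, MMP2, MMP3, MMP9, MMP10, MMP13 and MMP14, and 3 inhibitors, TIMP1, TIMP2 and TIMP3, out of 22190 genes in the deposited table. The members were chosen by name as enzymes that degrade matrix and their inhibitors, with earlier results of these data known. For 9 of them the row carried the symbol, whereas MMP10 had no row of that name and was found by its NCBI gene identifier under LOC100101603, which the table describes as stromelysin-2. All 10 passed the filter on low counts and were among the 15029 genes tested. The primary cells had grown out of limbal explants, with 3 libraries from fresh tissue (fresh group) and 3 from corneas that had been frozen for 1 week in liquid nitrogen in a cryomedium with IL-1β (preconditioned group). IL-1β is an inflammatory cytokine. One explant culture in keratinocyte medium is described for the study, and cells of both groups had been through it. Since the preconditioned corneas received freezing and IL-1β jointly, these cannot be told apart. The strain, sex and age of the rabbits were not given in the sources used here, nor whether each library came from a separate animal, so the p-values measure only the spread between these libraries.

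MMPs are zinc-dependent enzymes that cleave proteins of the extracellular matrix. Most are secreted as inactive precursors and are activated when a propeptide is removed, whereas membrane-type enzymes such as MMP14 act at the cell surface. TIMPs bind the active site of the enzymes and block them. In the cornea, they are known for their part in epithelial wound closure, in basement membrane turnover and in stromal ulceration, and IL-1 is a well-known inducer of several MMP genes in corneal cells.

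In short, MMP10 was the member that passed the test, at about 8.56 times its fresh level. The collagenases MMP1 and MMP13 were 2.79 and 2.18 times as high on average and missed the cutoff for the adjusted p. MMP13, MMP3, MMP2, MMP9, MMP14 and the 3 TIMPs overlapped between the groups. Levels are given as CPM, that is, counts scaled to a common library total, with TMM factors from edgeR. A gene was called when its Benjamini-Hochberg adjusted p over all tested genes in edgeR's quasi-likelihood test was at most 0.05 and its log2 fold change was at least 1 in size. By this rule 1 of the 10 members was called higher, against 1.08% of all tested genes. That gene was MMP10, whose row was matched by its identifier after the data were seen, and none of the 9 members found by symbol was called. No member was called lower, against 1.2% of tested genes, and 2.29% were called in either direction. An unadjusted p of at most 0.05 was reached by 3 of the 10 members, against 30.6% of all tested genes, so that this count was no larger than the background. The plot of each library shows these levels, and the plot of fold changes gives their intervals.

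**Figure D1:**
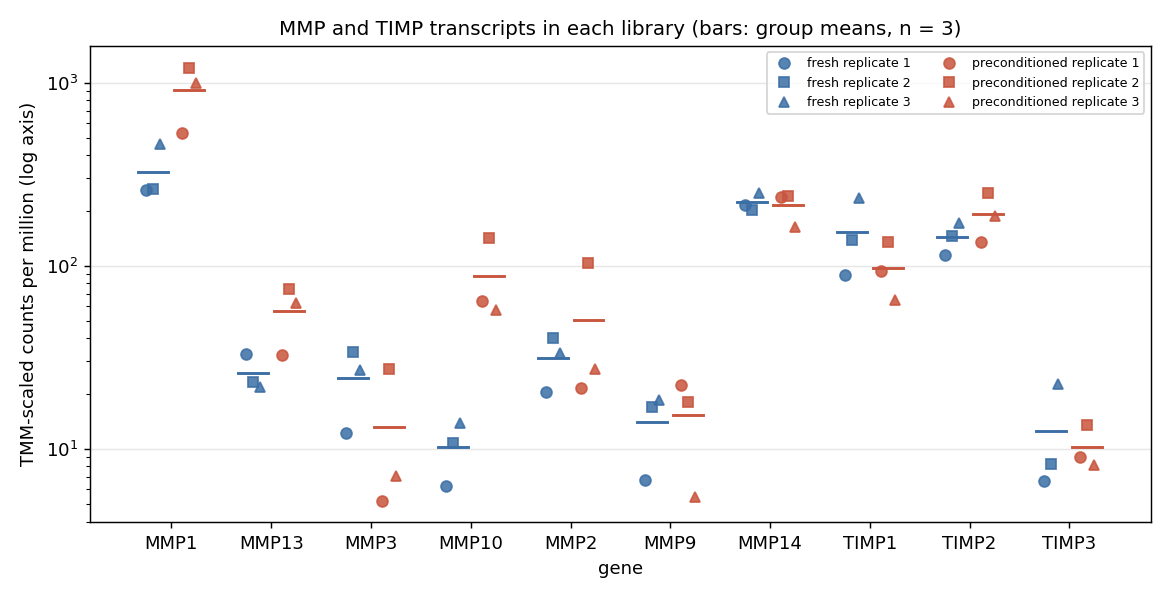
TMM-scaled CPM of the 10 genes (log axis) in 3 fresh libraries (blue) and 3 preconditioned libraries (red), with horizontal bars at the group means and a symbol for each replicate number. MMP1 and MMP10 are the genes whose red points all lie above the blue ones.

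**Figure D2:**
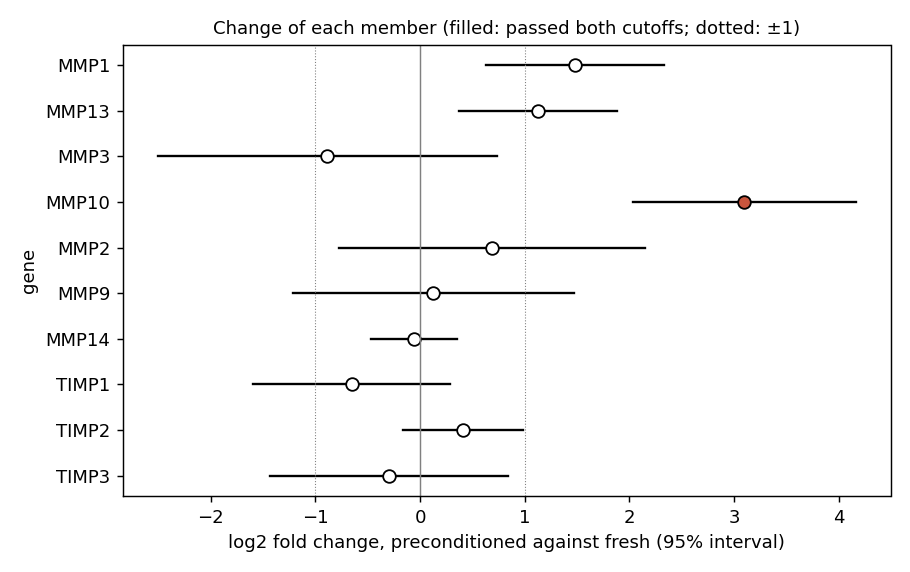
Log2 fold change of each gene, preconditioned against fresh, with its 95% interval from edgeR's quasi-likelihood fit and a filled point where both cutoffs were passed. The intervals of MMP1, MMP13 and MMP10 lie above 0, and only that of MMP10 lies wholly above 1.

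The libraries held 31952352 to 34327534 counts on genes. Epithelial genes dominated in all of them. KRT5, a keratin of basal epithelium, was at 7337 to 11740 CPM, while KRT14 and KRT12 were not found under those names. TP63, the gene of the progenitor marker p63, was at 246, 226 and 239 CPM in the fresh libraries. In the preconditioned libraries TP63 was lower, at 183, 122 and 112 CPM, without being called (log2 fold change −0.77, adjusted p = 0.059 in edgeR). Markers of stromal fibroblasts and keratocytes were present in every library. The summed level of the 14 of 16 such genes found in the table was 594 to 1276 CPM among fresh libraries, and 1027, 1896 and 1046 CPM in preconditioned replicates 1, 2 and 3. In bulk samples of this kind, fewer cells of a type and less RNA per cell cannot be told apart.

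Levels of different genes were compared per length, as FPKM (fragments per kilobase of gene, scaled to the library's total) from the deposited table. In the fresh group, TIMP1 and MMP1 were the most abundant members. TIMP1 was at 212 ± 103 FPKM (SD, n = 3) and MMP1 at 178 ± 63.4 FPKM (SD, n = 3), and their ranges overlapped. MMP14 and TIMP2 followed at 63.3 ± 7.27 and 50.6 ± 10.3 FPKM (SD, n = 3 each), with overlapping ranges that lay wholly below MMP1. The remaining 6 genes had mean levels from 6.38 to 20.9 FPKM, and each overlapped with its neighbour in the order, while TIMP2 lay wholly above TIMP3, the first of them. MMP10 and MMP9 had the lowest means in the fresh group, at 6.38 and 6.41 FPKM, and which of them was lower differed between libraries. In the preconditioned group all 10 genes took another place in the order of means, although below TIMP2 each gene overlapped with the next. MMP1 stood first at 438 ± 157 FPKM (SD, n = 3), and its lowest library, at 263 FPKM, lay above the highest of TIMP1, at 159 FPKM. TIMP1 followed at 119 ± 39.3 FPKM (SD, n = 3). MMP10 took the fifth place at 48.1 ± 24.1 FPKM (SD, n = 3), a level that overlapped with TIMP2 and MMP14. The lengths behind these values, worked out from counts and FPKM, ran from 636 bases for TIMP3 to 3718 bases for MMP14. The order therefore rests on the authors' gene models, and whether that of TIMP3 includes its untranslated parts was not tested.

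MMP1 and MMP13 are the collagenases among the members, which can cut the triple helix of fibrillar collagens. MMP1 was at 258, 263 and 459 CPM in fresh replicates 1, 2 and 3, and at 532, 1209 and 996 CPM in preconditioned replicates 1, 2 and 3. All preconditioned libraries lay above all fresh ones, but replicate 1 was much nearer to the highest fresh library than to the other preconditioned libraries. The log2 fold change was 1.48 (standard error 0.36, 95% interval 0.63 to 2.33, adjusted p = 0.058 in edgeR). Per length, MMP13 was much the scarcer collagenase, at 8.89 ± 2.07 FPKM in the fresh group and 17.2 ± 6.21 FPKM in the preconditioned group (SD, n = 3 each).

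MMP13 was at 33.0, 23.1 and 21.7 CPM in the 3 fresh libraries and at 32.6, 74.5 and 62.8 CPM in the 3 preconditioned ones. Preconditioned replicate 1 lay within the fresh range and the other 2 lay above it. Its log2 fold change was 1.13 (standard error 0.32, 95% interval 0.37 to 1.88, adjusted p = 0.076 in edgeR). Both collagenases thus had the same order among preconditioned libraries, with replicate 2 highest and replicate 1 lowest. Both calls turned on the tool and on a single library. The DESeq2 Wald test, run on the same counts, called 3.62% of its tested genes higher and called MMP1, MMP13 and MMP10, with adjusted p values of 0.00058 for MMP1 and 0.0078 for MMP13. On counts simulated once with the spread of each gene as estimated by edgeR, false calls lay above the nominal level in both tools, and more so in DESeq2. Whether the calls of MMP1 and MMP13 here were false was not tested. Without preconditioned replicate 1, edgeR called 3.98% of tested genes higher and again called these 3 members, with an adjusted p of 0.012 for MMP1 and 0.0075 for MMP13. Without any other library, the adjusted p of both genes was between 0.091 and 0.21.

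MMP3 and MMP10 are the stromelysins, which cleave proteoglycans, laminin and fibronectin and can activate the precursors of other MMPs. MMP10 was at 6.29, 10.7 and 13.7 CPM in the fresh libraries and at 64.5, 141 and 57.3 CPM in the preconditioned ones. The lowest preconditioned library was thus more than 4 times as high as the highest fresh library. The log2 fold change was 3.10 (standard error 0.45, 95% interval 2.03 to 4.16, adjusted p = 0.031 in edgeR), the largest in size among the 10 genes. As fold, the interval ran from 4.10 to 17.9.

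MMP3 was at 12.2, 33.9 and 26.9 CPM in the fresh libraries and at 5.20, 27.2 and 7.08 CPM in the preconditioned ones. Preconditioned replicates 1 and 3 lay below every fresh library, whereas replicate 2 lay within the fresh range. Its log2 fold change was −0.89 (standard error 0.68, 95% interval −2.51 to 0.73, adjusted p = 0.41), so the test allowed anything from a fall to about 0.176 of the fresh level to a level 1.66 times as high. Without preconditioned replicate 2 the log2 fold change was −1.98 (adjusted p = 0.15). The ratio of MMP10 to MMP3 within a library, taken from FPKM, showed the contrast between the stromelysins. It was 0.542, 0.332 and 0.539 in the fresh libraries and 13.1, 5.48 and 8.54 in the preconditioned libraries. MMP3 was the more abundant of the pair in every fresh library and MMP10 in every preconditioned library. The genes are related in sequence, and how reads matching both were counted is not given in the sources used here.

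The call for MMP10 held in 7 of the 8 settings that used all 6 libraries and lost it with the replicate number as a block (log2 fold change 3.05, adjusted p = 0.065). With 1 library left out, MMP10 was called in 1 of 6 fits, that without preconditioned replicate 1. In the other 5 the log2 fold change stayed between 2.57 and 3.36, with adjusted p values from 0.050 to 0.12. For MMP1 and for MMP10, an exact 2-sided permutation test of log2 CPM gave p = 0.1, the smallest that 3 libraries against 3 allow.

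MMP2 and MMP9 are the gelatinases, which degrade denatured collagen and type IV collagen of basement membranes. MMP2 is typically made by stromal cells and MMP9 by epithelium and leukocytes. MMP2 was at 20.3, 40.4 and 33.4 CPM in the fresh libraries and at 21.5, 103 and 27.2 CPM in the preconditioned libraries. A single library, preconditioned replicate 2, lay above the fresh range. The log2 fold change was 0.69 (95% interval −0.77 to 2.15, adjusted p = 0.48 in edgeR) and became −0.36 (adjusted p = 0.53) without that library.

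Preconditioned replicate 2 also had the highest level of 8 of the other 9 genes among the preconditioned libraries and the highest sum of stromal markers, 1896 CPM. Of the 14 stromal genes, 6 had their highest level there, among them DCN and LUM, proteoglycans of the corneal stroma, at 208 and 113 CPM against at most 142 and 53.3 CPM elsewhere. The other 8 were highest in another library, such as KERA, also a stromal proteoglycan, at 2.37 CPM there and 8.81 CPM in fresh replicate 3. Of the 9 leukocyte genes 7 were highest in it, with PTPRC, the common leukocyte antigen, at 47 counts against at most 17 elsewhere. PECAM1, a gene of endothelium and leukocytes, was at 12.8 CPM against at most 4.97 CPM elsewhere, while the endothelial genes VWF and KDR had 0 counts in it. The part of these cells in the levels of MMP2 and MMP3 was not tested.

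MMP9 was at 6.75, 16.9 and 18.4 CPM in the fresh libraries and at 22.3, 18.1 and 5.43 CPM in the preconditioned libraries. The highest and the lowest values of all 6 libraries were both in the preconditioned group. Its log2 fold change was 0.13 (95% interval −1.22 to 1.47, adjusted p = 0.90 in edgeR), an interval that allows a change of more than a doubling either way.

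MMP14, a membrane-type enzyme that cuts collagen and activates the precursor of MMP2, was the steadiest member. It was at 214, 203 and 250 CPM in the fresh libraries and at 237, 239 and 164 CPM in the preconditioned ones. The highest library was 1.23 times the lowest within the fresh group and 1.46 times within the preconditioned group. The log2 fold change was −0.06 (95% interval −0.47 to 0.35, adjusted p = 0.85 in edgeR). In fold, the interval ran from 0.724 to 1.28 and was the narrowest among the 10 genes.

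TIMP1 and TIMP2 are secreted inhibitors of most MMPs, and TIMP2 also takes part in the activation of MMP2 by MMP14. TIMP1 was at 88.4, 138 and 234 CPM in the fresh libraries and at 93.6, 134 and 65.2 CPM in the preconditioned ones. The highest value was in fresh replicate 3 and the lowest in preconditioned replicate 3, with overlap in between. Its log2 fold change was −0.65 (standard error 0.40, 95% interval −1.59 to 0.28, adjusted p = 0.30 in edgeR). It stayed negative in all 14 alternative settings, from −0.95 to −0.22, and was called in none of them.

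TIMP2 was at 115, 145 and 172 CPM in the fresh libraries and at 135, 250 and 188 CPM in the preconditioned ones. Preconditioned replicates 2 and 3 lay above the fresh range. The log2 fold change was 0.41 (95% interval −0.17 to 0.98, adjusted p = 0.30 in edgeR). TIMP3 is bound to the matrix and also blocks several ADAM proteases, which shed proteins from the cell surface. It was at 6.70, 8.21 and 22.6 CPM in the fresh libraries and at 9.04, 13.5 and 8.10 CPM in the preconditioned ones. Fresh replicate 3 stood apart from the other 5 libraries, and the log2 fold change of −0.29 (95% interval −1.43 to 0.84, adjusted p = 0.71) became 0.45 (adjusted p = 0.39) without it.

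Of the 10 members, MMP1 and MMP10 had groups that did not overlap, both with the preconditioned libraries higher. Among all tested genes, 17.9% were separated with the preconditioned group higher and 18.8% with it lower, so that 2 of 10 is near the background. The median log2 fold change was 0.27 over the members and 0.01 over all tested genes, with 6 members above 0 and 4 below.

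The balance of enzyme to inhibitor transcripts was described from FPKM within each library, which does not depend on scaling between libraries. MMP1 to TIMP1 was 1.15, 0.751 and 0.773 in the fresh libraries and 2.24, 3.56 and 6.02 in the preconditioned libraries. In the preconditioned group the mean ratio was thus 3.94 ± 1.92, against 0.891 ± 0.223 in the fresh group (SD, n = 3 each). Preconditioned replicate 3, with the lowest TIMP1, had the highest ratio. The sum of the 7 enzymes over the sum of the 3 inhibitors was 1.35, 1.02 and 0.888 in the fresh libraries and 2.24, 3.07 and 3.91 in the preconditioned libraries. Most of the sum of enzymes was MMP1, which made up 55.2% to 66.7% of it in fresh libraries and 67.3% to 81.7% in preconditioned libraries. The summed inhibitors overlapped between the groups, at 173 to 423 FPKM in the fresh libraries and 152 to 254 FPKM in the preconditioned ones.

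The inhibitors were also set against each other. TIMP2 to TIMP1 was 0.332, 0.268 and 0.187 in the fresh libraries and 0.369, 0.475 and 0.734 in the preconditioned ones, so that the groups were apart by the small gap from 0.332 to 0.369. TIMP1 remained the more abundant of these inhibitors in each library. The groups overlapped for MMP2 to TIMP2, at 0.199 to 0.314 in the fresh libraries and 0.163 to 0.465 in the preconditioned ones. They also overlapped for MMP14 to TIMP2, at 1.13 to 1.51 and 0.707 to 1.42. These ratios combine members that had been chosen with earlier results known and are given without a test. They are transcript ratios and do not measure enzyme activity, which also depends on cleavage of the precursors.

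**Figure D3:**
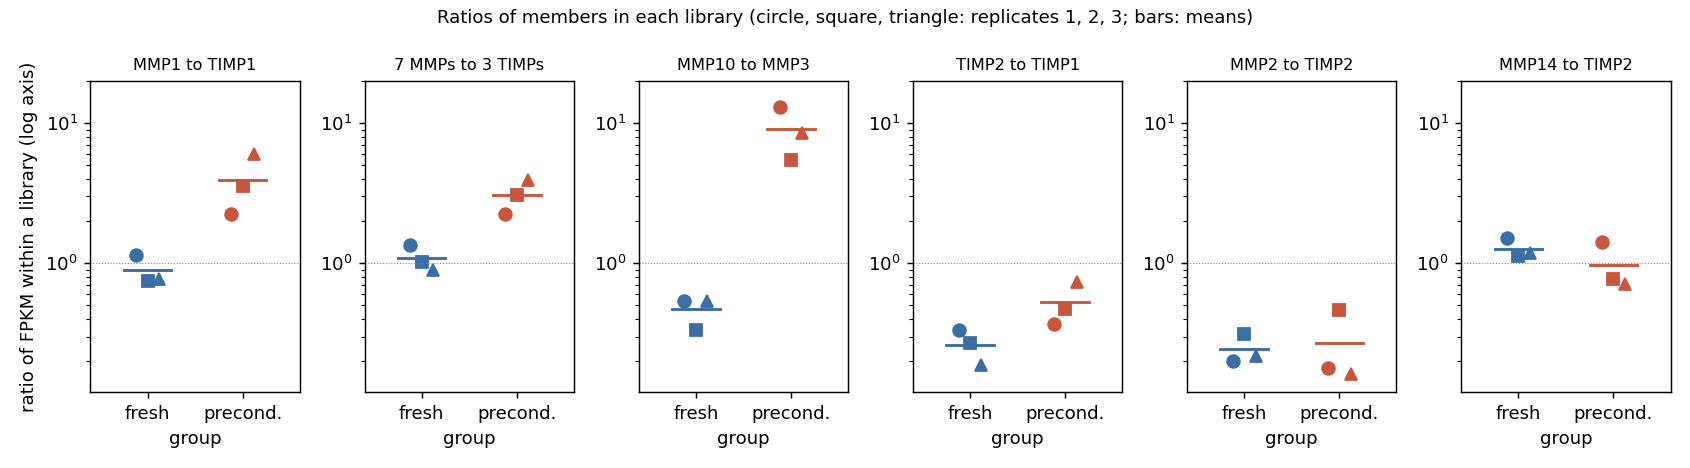
Ratio of FPKM values within each library on log axes, for MMP1 to TIMP1, all 7 MMPs to all 3 TIMPs, MMP10 to MMP3, TIMP2 to TIMP1, MMP2 to TIMP2 and MMP14 to TIMP2, with bars at the means of 3 fresh and 3 preconditioned libraries. The groups overlap in the last 2 panels, and MMP10 to MMP3 goes from below 1 in the fresh group to above 1 in the preconditioned group.

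In the RefSeq annotation of the rabbit assembly mOryCun1.1, 9 MMP genes lie together on chromosome 1, in the order MMP7, MMP20, MMP27, MMP8, MMP10, MMP1, MMP3, MMP12 and MMP13. This annotation was used for the order alone, because the build of the deposited tables is not given. The members MMP10, MMP1, MMP3 and MMP13 are in this cluster. The estimates along it were uneven. Next to MMP10 and MMP1 lies MMP3, whose estimate was negative, and MMP12, the macrophage elastase beyond it, had a log2 fold change of 0.49 (95% interval −0.64 to 1.61, adjusted p = 0.52 in edgeR). MMP12 was at 10.4, 24.4 and 30.7 CPM in the fresh libraries and at 22.9, 48.4 and 20.5 CPM in the preconditioned ones.

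At the other end of the cluster, MMP7, or matrilysin, a small epithelial enzyme, was called. It was at 0.667, 1.15 and 0.547 CPM in the fresh libraries and at 6.82, 4.73 and 4.74 CPM in the preconditioned libraries. The preconditioned libraries were close to each other and at least 4 times as high as any fresh one. The log2 fold change was 2.78 (standard error 0.39, adjusted p = 0.028), and it was called in 7 of 8 settings with all libraries and in 1 of 6 with a library left out, as MMP10 was. MMP7 nevertheless remained a scarce transcript, with 20 to 41 counts in the fresh libraries and 144 to 224 in the preconditioned ones. MMP27 had at most 1 count in any library and was not tested, and MMP20 and MMP8 were not analysed here.

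**Figure D4:**
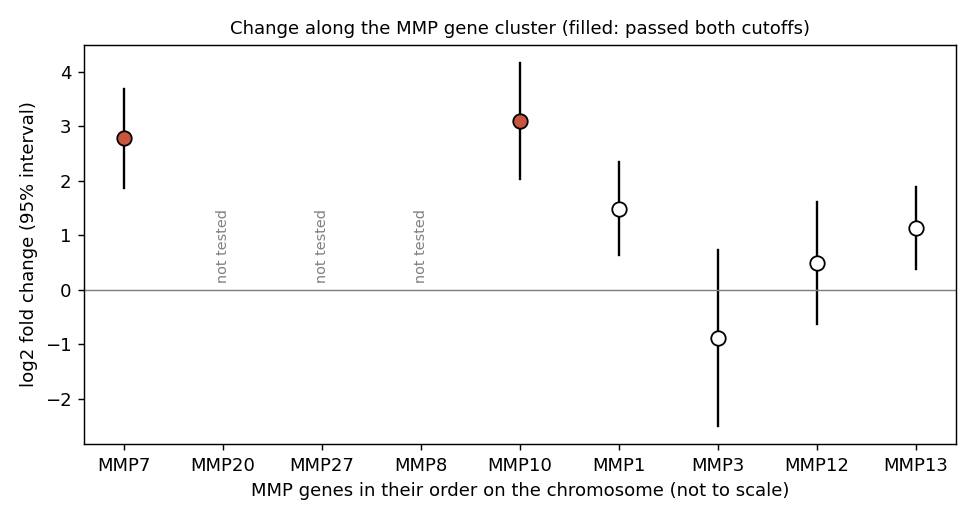
Log2 fold change with its 95% interval for the 6 tested of the 9 MMP genes on chromosome 1, in RefSeq order and not to scale, with a filled point where both cutoffs were passed and no value for MMP20, MMP27 and MMP8. MMP7 and MMP10 are filled, MMP1 and MMP13 lie above 0 without passing the adjusted p, and MMP3 lies below 0 between neighbours with estimates above 0.

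Of 16 further MMP genes listed, 12 were in the table under their symbols and 9 were tested. MMP7 was called higher, none was called lower, and the median log2 fold change was 0.49. MMP28, or epilysin, is an MMP of keratinocytes. Its CPM was 200, 106 and 191 in the fresh libraries and 226, 215 and 270 in the preconditioned ones, without overlap on this scale but with overlap in FPKM, and with a log2 fold change of 0.52 (95% interval −0.06 to 1.09, adjusted p = 0.20 in edgeR). Of the other inhibitors, RECK, a membrane-anchored one, was tested, and its estimate on the log2 scale was −0.17 (adjusted p = 0.76).

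Among 17 tested activators and cofactors, 1 was called higher and none lower, with a median log2 fold change of 0.08. The gene was PLAU, urokinase, which turns plasminogen into plasmin, an activator of MMP precursors. It was at 2362, 2260 and 2093 CPM in the fresh libraries and at 4108, 6450 and 4786 CPM in the preconditioned libraries (log2 fold change 1.19, standard error 0.18, adjusted p = 0.031 in edgeR). ITGAV, an integrin chain, passed the adjusted p alone, with a log2 fold change of 0.68 (adjusted p = 0.040). Among 21 tested ADAM and ADAMTS proteases, ADAM9, a sheddase at the cell surface, was called higher and none lower, with a median of 0.08. ADAM9 was at 497, 397 and 571 CPM in the fresh libraries and at 884, 1313 and 1148 CPM in the preconditioned libraries (log2 fold change 1.19, adjusted p = 0.035).

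Of 28 tested substrates in the matrix and basement membrane, COL1A1 was called higher and none lower, and the median log2 fold change was −0.19. COL1A1 encodes a chain of type I collagen, a substrate of MMP1 and MMP13, and was at 56.8 to 109 CPM in the fresh libraries and at 505 to 693 CPM in the preconditioned ones (log2 fold change 2.66, adjusted p = 0.015 in edgeR). Others that passed the adjusted p alone included LAMB3, a chain of a basement membrane laminin, with a log2 fold change of 0.99, and AGRN, a basement membrane proteoglycan, with −0.95. Among 36 tested transcription factors and signals known to act upstream of MMP genes, none was called higher and 1 lower, with a median of −0.02. The called gene was NFKB1, a subunit of NF-κB, at 83.3, 98.9 and 89.8 CPM in the fresh libraries and 60.7, 34.6 and 34.1 CPM in the preconditioned ones (log2 fold change −1.07, adjusted p = 0.0498). By the adjusted p alone, which 5.08% of all tested genes passed, there were 3 genes, and the other 2 were higher. They were NFKBIZ, a regulator of NF-κB targets, with a log2 fold change of 0.74 (adjusted p = 0.037) and DUSP1, a phosphatase of MAP kinases, with 0.85 (adjusted p = 0.044). Each of these lists is described by its counts beside 1.08% called higher and 1.2% called lower among all tested genes.

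The cell type markers were set beside the members because several moved with the libraries in which MMP1 and MMP13 were highest. None of the tested markers in 7 lists was called. The sum of macrophage and other leukocyte genes was 105 to 137 CPM in the fresh libraries and 126, 327 and 295 CPM in preconditioned replicates 1, 2 and 3. Nearly all of it was CD68, a lysosomal protein found also outside macrophages, at 93.4 to 129 CPM in the fresh libraries and 121, 300 and 288 CPM in the preconditioned ones, while CD3E, a T cell gene, had at most 1 count in any library. The 6 genes of cycling cells summed to 490 to 688 CPM in the fresh libraries and to 439, 158 and 175 CPM in the preconditioned ones, so that preconditioned replicates 2 and 3 had the highest MMP1 and MMP13 and the lowest sum of cycling genes. Epithelial markers, of which KRT5 was the largest part, summed to 11320 to 14977 CPM in the fresh libraries and to 10812 to 14992 CPM in the preconditioned ones. Conjunctival markers summed to 2656 to 4693 CPM and 1911 to 4665 CPM. Endothelial markers reached 13.4 CPM, of which PECAM1 made up 12.8 CPM, and melanocyte markers 6.39 CPM in their highest library, with PMEL, TYR and MLANA at no more than 3 counts anywhere. The part of these differences in the levels of MMP1, MMP13 and MMP10 was not tested.

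**Figure D5:**
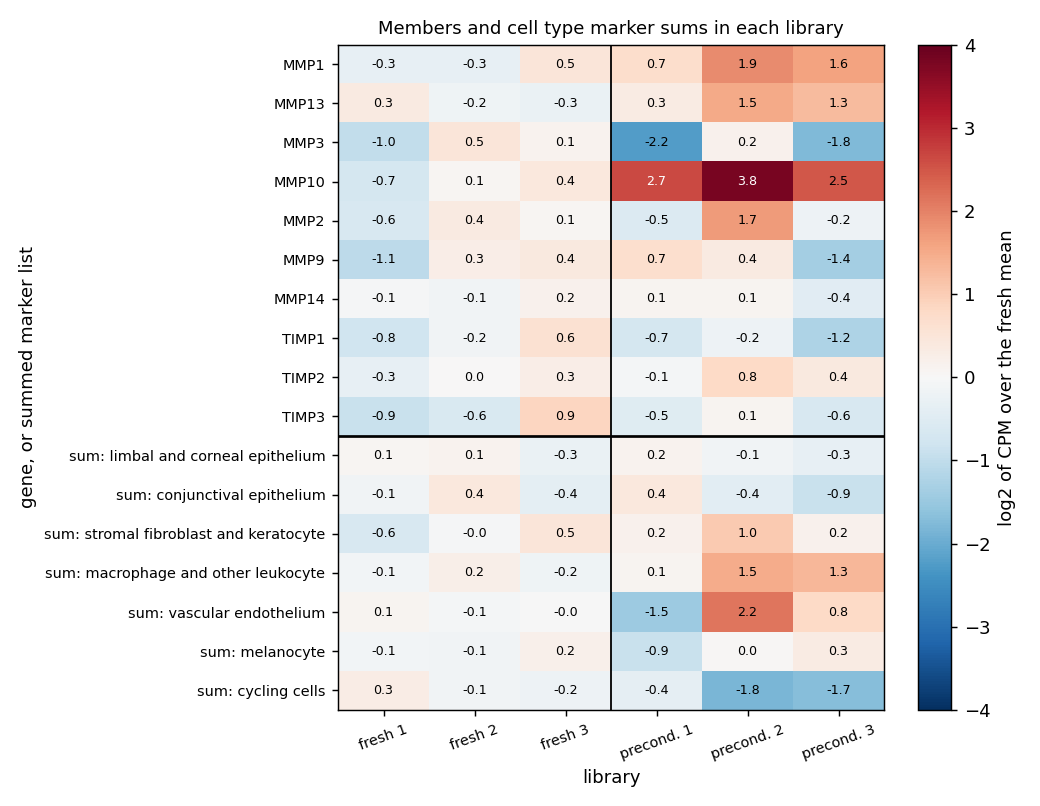
Log2 ratio of CPM in each library to the mean of the 3 fresh libraries, for the 10 genes (upper rows) and for the summed CPM of 7 marker lists (lower rows) as colour. MMP10 is 2.5 to 3.8 above in all preconditioned libraries, while MMP2 stands out in preconditioned replicate 2, as do the stromal sum and the endothelial sum, which is nearly all PECAM1.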

How the data were processed

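The deposited counts are raw whole numbers per gene, for which the authors used hisat2 as aligner and htseq-count as counter. The authors also deposited FPKM values, which equal the counts divided by the library's total and by 1 length per gene. The strand setting and genome build are not given in the sources used here. Every column was assigned to a library by its name. The depth was 31952352 to 34327534 counts per library. How far counting error and the spread between libraries each limit the precision was not tested.

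The main test was that of edgeR 4.0.16 in R 4.3.3 (filterByExpr, TMM, robust quasi-likelihood test, 15029 genes). Counts were simulated once from these libraries, with the spread of each gene as estimated by edgeR. On them the fits recovered the fold changes with little bias, but the share of false calls lay above the nominal level in edgeR and more so in DESeq2. Standard errors were derived from the F statistic. The members and lists were chosen with earlier results of these data known. Named genes were all members, rows without a symbol described as an MMP or TIMP, the called genes of each list or else that with the smallest adjusted p, and the genes most like MMP1 and MMP10 over the libraries. MMP12, MMP28, MMP27, TIMP4 and list genes below the fold change cutoff were added after their values were seen. Of 22177 gene identifiers, 19462 were found in RefSeq. No sequences were used here.

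Alternatives were the study's tool DESeq2 in version 1.42.0, its size factors, library size alone, 2 other filters, the replicate number as a block, each library left out, limma 3.58.1 on log2(FPKM + 1) and log2(FPKM + 0.1), and no fold change cutoff.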

Additional observations from a re-analysis of the deposited data

How the results depend on the processing

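Among all tested genes, 344 were called (47.4% of them higher). DESeq2 called 1190, limma on log2(FPKM + 0.1) 590, and the fit without a fold change cutoff 763. With library size alone, 565 were called, 25.1% of them higher, and the median over tested genes went from 0.01 to −0.16 (log2). The higher share was 23.9% and 27.2% with limma on log2(FPKM + 0.1) and log2(FPKM + 1). The labels repeat replicate numbers but name no shared animal. Across genes, deviations from the group means correlated at r = −0.067, −0.073 and −0.109 between same-numbered libraries and at −0.185 to 0.225 between the others, and no library correlated best with its own number. With the replicate block, 30 genes and none of the members were called. With 1 library left out, 14 to 1546 genes were called, the most without preconditioned replicate 1.

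Of the 9 members found by symbol, none was called, against 2 (MMP1 and MMP13) with DESeq2 and 0 to 2 with a library left out. With MMP10, matched by its gene identifier after the data were seen, 1 was called, against 3 with DESeq2, 0 with the replicate block and 0 to 3 with a library left out. Groups without overlap were found for 1 member, or 2 with MMP10. The sign of MMP9 turned with library size alone (−0.046) and with limma (−0.11 and −0.14 with pseudocounts of 1 and 0.1). With a library left out, log2 fold changes ranged from −0.27 to 0.53 for MMP9, from −0.36 to 1.04 for MMP2, from −0.15 to 0.11 for MMP14 and from −0.60 to 0.45 for TIMP3. No other member changed sign. The cause of these differences was not tested. Of 154 recomputed values for the members and MMP7, 128 kept their sign and side of the cutoffs, 12 lost the call, 4 gained it and 10 changed sign. The block changed no other call among the members.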

Other observations

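Genes whose pattern over the 6 libraries was most like that of MMP1 and MMP10 were found by the root mean square difference of centred log2 CPM, among 11865 and 11866 tested genes with a symbol. For MMP1 they were NPL (0.143), HILPDA (0.147), DHRS7 (0.153), GPR157 (0.158) and DUSP4 (0.166). HILPDA, a lipid droplet protein induced by hypoxia, was at 47.5, 42.2 and 75.4 CPM in the fresh libraries and at 82.1, 235 and 202 CPM in the preconditioned ones, close to the proportions of MMP1. DUSP4, a phosphatase that limits MAP kinase signalling, was at 28.9, 30.1 and 54.4 CPM and at 72.8, 168 and 153 CPM. For MMP10 the genes were HCN2 (0.290), COL1A1 (0.332), UGT8 (0.417), NEXN (0.440) and KCNA1 (0.454), so that the matches to MMP10 were looser than those to MMP1. Some of the matches were scarce transcripts, whose patterns are less certain. HCN2 was at 0.261 to 0.647 CPM and KCNA1 at 0.174 to 0.422 CPM in the fresh libraries. NPL was at 0.591 to 2.37 CPM over all libraries.

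Other inhibitor and MMP rows had few counts. TIMP4 had 13, 2 and 81 counts in the fresh libraries and 1, 4 and 2 in the preconditioned libraries, so that most of its counts were in fresh replicate 3, where TIMP1 and TIMP3 were also highest. A row described as matrix metalloproteinase-19, LOC100342188, had 112 counts in preconditioned replicate 2 and at most 11 in any other library, and a second row of that description, LOC127487412, had 36 counts in preconditioned replicate 3 and at most 13 elsewhere. A further row described as metalloproteinase inhibitor 1, LOC103348521, had 4 and 6 counts in preconditioned replicates 2 and 3 and none elsewhere. None of these passed the filter on low counts, and their values are uncertain where near-identical copies share reads.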
